A study of Homo sapiens with 18 samples.

Results

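The 33 genes described here are known targets of p53, chosen by symbol with earlier results of these data known. They include *TP53INP1*, a p53 target that lies near the top of the response to *SOX11* knockdown in 1 cell line. All 33 were found among the 26941 genes of the count tables. RNA was sequenced from 18 samples of 3 established B-cell precursor acute lymphoblastic leukemia lines, with 3 samples for each of 6 groups. REH carries the ETV6-RUNX1 fusion. In each line the cells were nucleofected with an siRNA at 300 nM, either against *SOX11* or a non-specific control, and were harvested for RNA 48 h later. All groups thus went through nucleofection, no untransfected cells were sequenced, and the sample titles call the *SOX11* siRNA samples KO although the gene was silenced and not deleted.

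p53 is a transcription factor that is held low by MDM2, which marks it for degradation, and by MDM4, which blocks its activity. When DNA damage or other stress frees p53, it binds response elements near its targets and raises genes that stop the cell cycle, repair DNA, set off apoptosis or feed back on p53 itself. B-cell precursors use this pathway to remove cells with faulty DNA, and leukemia drugs act partly through it. TP53INP1 is a stress-induced protein that promotes phosphorylation of p53 and takes part in autophagy.

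The response element is where p53 meets these genes, so the best match in each was looked for in the hg19 genome within 2500 bases on either side of the start of the canonical transcript. The consensus consists of 2 half-sites of 10 bases with no gap, each holding purines, C, A or T, A or T, G and then pyrimidines. It reads the same on both strands, and only sequences with the fixed C and G of both half-sites were counted. Of the 29 targets counted here, 11 had a match with at most 2 bases off the consensus, beside 3.79% of 19812 protein-coding genes. With no base off it, the counts were 2 of 29 targets and 0.0656% of genes. The 29 leave out *TP53INP1*, *TNFRSF10B* and *RRM2B*, for which no match is reported here. They also leave out *FAS*, which had no transcript marked canonical. The counts therefore say nothing about these genes.

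The matches of the genes that the results below turn on are shown 5′ to 3′ on the strand of the gene, with bases that match the consensus in capitals. They lie on hg19 at chr12:69202703-69202722 in intron 1 of *MDM2* (+ strand), at chr1:203272770-203272789 upstream of *BTG2* (+), at chr5:57758101-57758120 upstream of *PLK2* (-), at chr11:5711781-5711800 in intron 1 of *TRIM22* (+), at chr1:204486075-204486094 in intron 1 of *MDM4* (+), at chr6:36644226-36644245 upstream of the canonical start of *CDKN1A* (+) and at chr1:68152458-68152477 in intron 3 of *GADD45A* (+).
MDM2: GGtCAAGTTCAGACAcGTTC
BTG2: AcGCATGTTCAGGCATGCaT
PLK2: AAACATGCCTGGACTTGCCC
TRIM22: tGACATGTCTAGGCATGTag
MDM4: AtGCTTGTTTtGGCTTGgCg
CDKN1A: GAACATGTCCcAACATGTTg
GADD45A: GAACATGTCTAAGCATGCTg
The *PLK2* sequence matched the consensus at every base. *GADD45A* was 1 base off, *MDM2*, *BTG2* and *CDKN1A* were 2 off, *TRIM22* was 3 off, and *MDM4* was 4 off with another match as good, which is no closer than 56.0% of all genes reached. A match is a string of letters and was not tested as a binding site.

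The total count per sample lay between 7039594 and 16592492, so that 3 counts equal between 0.181 and 0.426 CPM (counts scaled to a library of 1000000). *SOX11* mRNA fell in REH, to a fold of 0.564 of its control (log2 fold change -0.83, SE 0.06, adjusted p = 1.45e-08), to 0.530 in 697 (-0.91, SE 0.07, adjusted p = 0.000221) and to 0.627 in RCH-ACV (-0.67, SE 0.05, adjusted p = 2.46e-06). The B-precursor markers *CD79A*, *PAX5* and *EBF1* were above 100 CPM in every sample, while *VPREB1* stayed under 0.1 CPM in REH. Of 8 such markers, *CD79A* (log2 fold change 0.46, SE 0.06, adjusted p = 0.000261) and *CD22* (0.20, SE 0.05, adjusted p = 0.0151) rose in RCH-ACV. *EBF1* fell in 697 (-0.34, SE 0.06, adjusted p = 0.0319) and in REH (-0.13, SE 0.03, adjusted p = 0.0288), where *CD79A* rose (0.13, SE 0.03, adjusted p = 0.0252). The calls were lost under 0 of 14 alternatives for *CD79A* and 4 of 14 for *CD22* in RCH-ACV, under 6 of 15 for *EBF1* in 697, and under 8 of 14 for *EBF1* and 6 of 14 for *CD79A* in REH. The part of these changes in the results below was not tested. Of 12 markers of other blood cells, 9 never passed 1 CPM and 5 were at 0 in every sample, among them *CD3D* and *HBB*. The summed level of the 12 was 14.4 to 16.3 CPM in the REH controls and 8.54 to 10.3 CPM after *SOX11* siRNA, 13.4 to 15.8 and 13.2 to 13.5 CPM in 697, and 14.1 to 15.7 and 10.6 to 12.99 CPM in RCH-ACV. In REH that fall was in *MPO*, a myeloid enzyme, which fell from 13.5 to 7.90 CPM on average (log2 fold change -0.78, SE 0.12, adjusted p = 0.000237), and its part in the results below was not tested.

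*TP53INP1* (hg19 chr8:95938200-95961606, - strand, 4 exons in the canonical transcript) fell to 46.9% of its control in RCH-ACV and to 72.2% in 697, and no fall was seen in REH. In RCH-ACV it stood at 125, 128 and 145 CPM in the 3 control samples and at 60.2, 57.7 and 70.4 CPM in the 3 *SOX11* siRNA samples. In 697 the controls held 37.7, 43.0 and 40.8 CPM and the *SOX11* siRNA samples 28.7, 28.4 and 30.6 CPM. In REH the controls held 32.03, 22.3 and 21.9 CPM and the *SOX11* siRNA samples 27.8, 27.0 and 29.6 CPM. The groups were thus far apart in RCH-ACV, apart by a smaller gap in 697, and overlapping in REH, where control replicate 1 lay above all *SOX11* siRNA samples and the other two controls below them. In bulk libraries like these, fewer cells with the transcript and less of it per cell cannot be told apart.

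**Figure D1:**
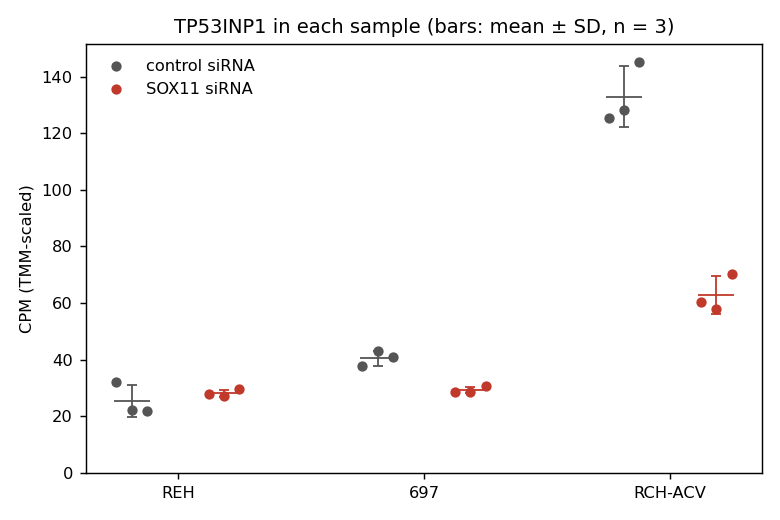
Level of *TP53INP1* in CPM (vertical axis, TMM-scaled) in each of the 18 samples, by cell line (horizontal axis) and siRNA, with the mean and SD of 3 samples as bars. In RCH-ACV all 3 *SOX11* siRNA samples (57.7 to 70.4 CPM) lie below all controls (125 to 145 CPM), in 697 the gap is smaller, and in REH the groups overlap.

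By the quasi-likelihood test of edgeR, adjusted over all genes by the Benjamini-Hochberg method, the log2 fold change of *TP53INP1* was -1.09 in RCH-ACV (SE 0.07, adjusted p = 5.03e-07), -0.47 in 697 (SE 0.09, adjusted p = 0.0442) and 0.15 in REH (SE 0.11, adjusted p = 0.523). In RCH-ACV it had the smallest p of 12963 genes tested, and its fall was the 15th largest among the 508 genes that fell. The two-sided exact permutation test of log2 CPM gave p = 0.1 in RCH-ACV and in 697, the smallest that 3 samples against 3 allow, and p = 0.4 in REH. The call in 697 was lost when any single 697 sample other than control replicate 1 was left out (adjusted p from 0.0870 to 0.269), with library size alone (0.0640) and under the replicate block (0.175). With the 697 samples numbered 3 left out it was lost too, so 8 of 15 alternatives ended it (range 0.0108 to 0.269). In REH, leaving out control replicate 1 made the difference pass the test in the other direction (log2 fold change 0.36, adjusted p = 0.0188, over a range of 0.0188 to 0.920 with each sample left out). *NDUFAF6*, a mitochondrial assembly factor gene on the opposite strand that shares 225 exonic bases (4.01%) with *TP53INP1*, also fell in RCH-ACV (log2 fold change -0.31, SE 0.08, adjusted p = 0.0254) and not in 697 (0.07, adjusted p = 0.943) or REH (-0.02, adjusted p = 0.967). Whether the counting used strand is not given in the sources used here, and the part of shared reads was not tested.

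The siRNA effect on *TP53INP1* differed between the 3 lines when the difference itself was tested in a fit over the 18 samples (adjusted p = 0.000116). It was the only one of 31 targets tested that did, beside 0.734% of 14026 genes. The effect in RCH-ACV minus that in REH, where the value was above 0, was -1.24 on the log2 scale (SE 0.15, adjusted p = 0.000128), a contrast in which 0.642% of genes differed. Between RCH-ACV and 697 the difference of -0.62 (SE 0.15) did not pass the test (adjusted p = 0.104), nor did that between 697 and REH (-0.61, adjusted p = 0.148). In these contrasts edgeR called 0 of 31 targets, beside 0.0856% and 0.271% of genes, and 4 and 5 targets had an unadjusted p under 0.05.

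In RCH-ACV, 7 of the 31 targets tested were called, beside 7.51% of 12963 genes, and they went both ways. *TP53INP1* is among them and was listed with its response in these data known. The other targets and the gene lists were also chosen with earlier results of these data known. The counts of targets in each line and over all targets are thus not independent of that choice. *MDM2*, *MDM4* and *BTG2* rose, beside 3.59% of genes, while *TP53INP1*, *PLK2*, *TNFRSF10B* and *TRIM22* fell, beside 3.92% of genes. The fall of *TP53INP1* thus went with that of 3 other targets, while the other 24 tested were not called. In REH, 3 of 31 were called, beside 4.65% of 12787 genes: *MDM2* and *BTG2* rose (2.64% of genes) and *TNFRSF10B* fell (2.01% of genes). In 697, *TP53INP1* was the only one of 29 that was called, beside 0.559% of 12169 genes tested and 0.477% that fell (0.0822% rose).

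**Figure D2:**
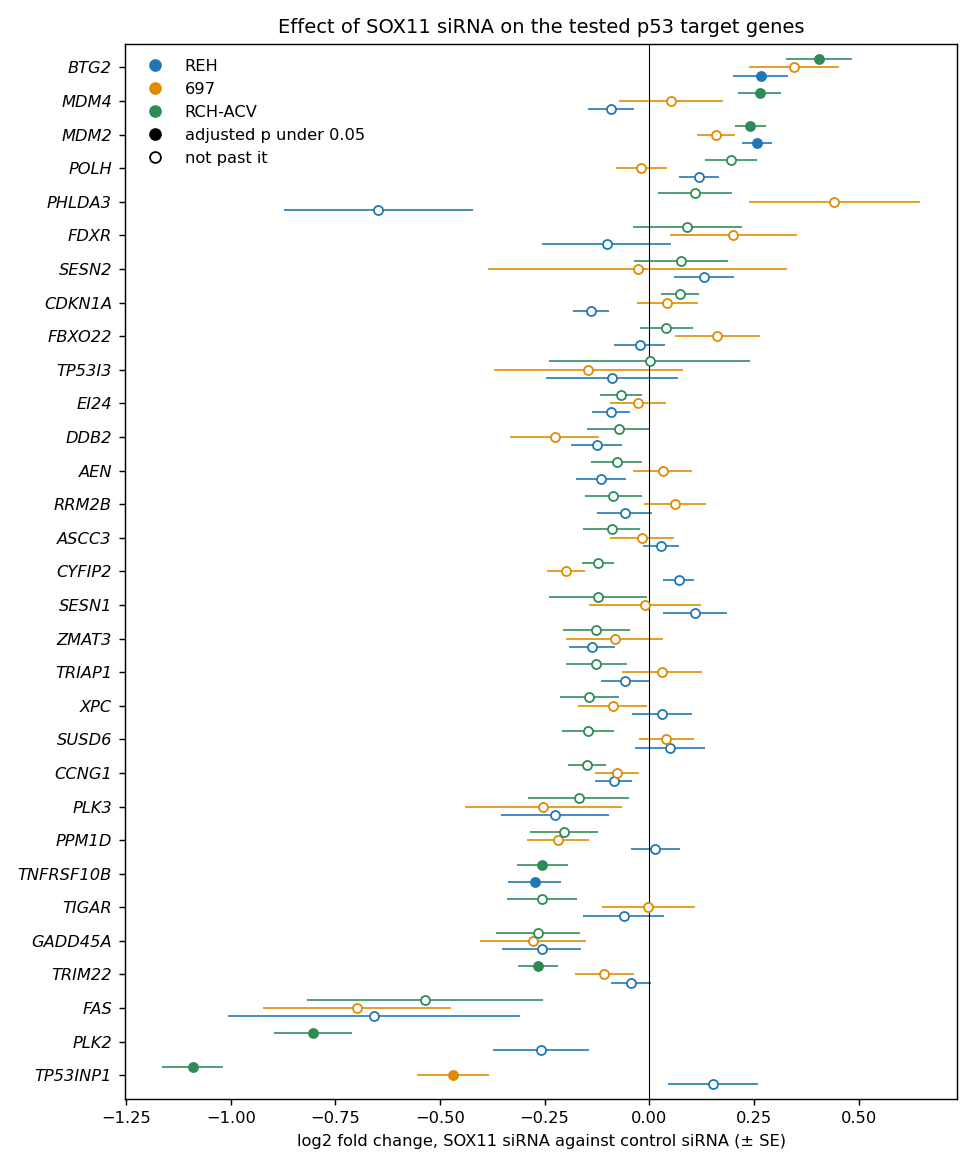
Log2 fold change between *SOX11* siRNA and control siRNA (horizontal axis, with its SE) for the p53 targets tested (vertical axis, ordered by RCH-ACV), with filled points for an adjusted p under 0.05. *TP53INP1* lies at -1.09 in RCH-ACV and *PLK2* at -0.80, while *MDM2* and *BTG2* lie right of 0 in all 3 lines and most other targets within a short distance of 0.

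Over all targets tested, the median log2 fold change was -0.12 in RCH-ACV, -0.06 in REH and -0.02 in 697, while the median over all genes was 0.00 in each line. Values were negative for 21 of 31 targets in RCH-ACV (48.5% of all genes), 20 of 31 in REH (51.0%) and 18 of 29 in 697 (51.5%). The *SOX11* siRNA samples lay below all controls for 11 targets and above them for 5 in RCH-ACV, where 13.6% and 12.2% of all genes did so. In REH these counts were 11 and 3 (11.3% and 10.0% of genes), and in 697 they were 7 and 3 (7.42% and 5.69% of genes). In the same direction in all 3 lines, the groups did not overlap for *MDM2* and *BTG2*, both higher, and for *GADD45A* and *TRIM22*, both lower, of the 29 targets tested in every line. Among 11310 genes tested in every line, 0.601% were higher and 1.13% lower in this sense.

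*MDM2*, the ubiquitin ligase that degrades p53 and is itself induced by it, rose by a similar amount in REH and RCH-ACV. In REH it stood at 871, 838 and 805 CPM in the controls and at 985, 946 and 1062 CPM after *SOX11* siRNA. In RCH-ACV the values were 558, 527 and 559.6 CPM against 665, 634 and 647 CPM, and in 697 they were 951, 875 and 872 CPM against 971, 981 and 1068 CPM. The *SOX11* siRNA samples were above all controls in each line. The log2 fold change was 0.26 in REH (SE 0.04, adjusted p = 5.67e-05), 0.24 in RCH-ACV (SE 0.04, adjusted p = 0.000845) and 0.16 in 697 (SE 0.05, adjusted p = 0.245). A lncRNA on the opposite strand shares 10.5% of the exonic bases of *MDM2*, and a processed pseudogene on the same strand shares 5.86%.

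*MDM4*, the relative of *MDM2* that blocks the activation domain of p53, rose in RCH-ACV, from 100.9, 110.3 and 105 CPM in the controls to 129.6, 128 and 122 CPM (log2 fold change 0.26, SE 0.05, adjusted p = 0.00472), a call that was lost in 1 fit over the 18 samples (adjusted p = 0.0715, range over alternatives 5.63e-05 to 0.0715). In REH it stood at 65.8, 66.2 and 66.0 CPM against 58.3, 61.5 and 65.4 CPM (-0.09, SE 0.06, adjusted p = 0.443), so the *SOX11* siRNA samples lay below the controls there. In 697 the groups overlapped, with 115, 126 and 106 CPM against 116, 145 and 98.98 CPM (0.05, SE 0.12, adjusted p = 0.974). The difference between RCH-ACV and REH was 0.36 on the log2 scale and did not pass the test (adjusted p = 0.273).

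*BTG2*, an antiproliferative gene that slows entry into the cell cycle, rose in RCH-ACV from 29.6, 35.3 and 33.2 CPM to 39.9, 44.5 and 44.5 CPM (log2 fold change 0.41, SE 0.08, adjusted p = 0.00460). In REH it went from 50.7, 44.95 and 42.3 CPM to 53.2, 58.1 and 55.2 CPM (0.27, SE 0.07, adjusted p = 0.0176), a call that was lost without control replicate 2, control replicate 3 or *SOX11* siRNA replicate 2 (adjusted p from 0.0685 to 0.116), in DESeq2 (0.0600) and in 1 fit over the 18 samples (0.0739), 5 of 14 alternatives in all (range 0.00233 to 0.116). In 697 the controls held 15.1, 16.2 and 17.4 CPM and the *SOX11* siRNA samples 20.98, 21.3 and 19.6 CPM (0.35, SE 0.11, adjusted p = 0.323). No group overlapped its control in any line.

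*CDKN1A*, which encodes the cell cycle inhibitor p21 and is the target most often used to read p53 activity, was not called in any line. In RCH-ACV it stood at 153, 153 and 150.1 CPM in the controls and at 163, 161 and 155 CPM after *SOX11* siRNA (log2 fold change 0.07, SE 0.05, adjusted p = 0.365). In REH the order was the opposite, with 149.7, 146 and 146 CPM against 136, 136 and 128 CPM (-0.14, SE 0.04, adjusted p = 0.0630). The gene was called as lower in REH under library size alone, in 1 of 14 alternatives. In 697 the groups overlapped, from 82.2 to 87.1 CPM against 80.4 to 93.4 CPM (0.04, SE 0.07, adjusted p = 0.964).

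Cell cycle genes that p53 represses by way of p21 were compared beside it. Of 20 such genes tested in each line, *MKI67*, *TOP2A* and *AURKB* rose in REH, by 0.25, 0.12 and 0.18 on the log2 scale (3 of 20, beside 2.64% of all genes), and the calls of *AURKB*, *TOP2A* and *MKI67* were lost under 7, 1 and 1 of 14 alternatives. In REH 8 of the 20 had an unadjusted p under 0.05 in edgeR. Values there were positive for 16 and negative for 4, where 51.0% of all genes were negative. The *SOX11* siRNA samples of REH lay above all controls for 8 and below them for 1, beside 10.0% and 11.3% of genes. In 697 and RCH-ACV edgeR and DESeq2 called 0 of 20, with 0 and 1 at an unadjusted p under 0.05 in edgeR, where 0.559% and 7.51% of all genes were called. The median log2 fold change of the 20 was 0.06 in REH, 0.00 in 697 and -0.02 in RCH-ACV.

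*GADD45A*, a growth arrest and DNA damage gene, showed nearly the same difference in the 3 lines, and it did not pass the test in any of them. The controls held 18.1, 17.3 and 17.2 CPM in REH, 16.6, 16.5 and 17.97 CPM in 697 and 15.7, 16.8 and 17.7 CPM in RCH-ACV. After *SOX11* siRNA the values were 14.4, 14.2 and 15.1 CPM, 15.01, 15.1 and 12.1 CPM, and 13.1, 14.2 and 14.2 CPM. The log2 fold change was -0.26 in REH (SE 0.09, adjusted p = 0.141), -0.28 in 697 (SE 0.13, adjusted p = 0.609) and -0.27 in RCH-ACV (SE 0.10, adjusted p = 0.126).

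*PLK2*, a stress-induced kinase of the polo family, fell to 57.3% of its control in RCH-ACV. It stood there at 24.6, 23.9 and 26.3 CPM in the controls and at 13.9, 13.8 and 15.5 CPM after *SOX11* siRNA (log2 fold change -0.80, SE 0.09, adjusted p = 7.10e-05), the largest fall among the targets after that of *TP53INP1*. In REH the values were 12.3, 12.4 and 11.4 CPM against 9.89, 9.22 and 10.8 CPM, also without overlap, and the log2 fold change of -0.26 (SE 0.11) did not pass the test (adjusted p = 0.239). The difference between these lines was -0.54 on the log2 scale and did not pass the test either (adjusted p = 0.154). In 697 the gene had 8 counts in all 6 samples together and was not tested.

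*TNFRSF10B*, which encodes the death receptor DR5 for the ligand TRAIL, fell by nearly the same share in REH and RCH-ACV. In REH it went from 45.1, 43.6 and 45.2 CPM to 37.4, 36.8 and 35.9 CPM (log2 fold change -0.27, SE 0.06, adjusted p = 0.0108). In RCH-ACV it went from 64.8, 69.4 and 66.5 CPM to 54.2, 54.8 and 59.2 CPM (-0.26, SE 0.06, adjusted p = 0.0154). Leaving out any RCH-ACV sample other than *SOX11* siRNA replicate 3 took the adjusted p there to between 0.0518 and 0.0914, and leaving out REH control replicate 3 took that in REH to 0.0548. DESeq2 also lost the call in REH (adjusted p = 0.0719, range over alternatives 0.00555 to 0.0719). With 14 counts over the 6 samples of 697 the gene was not tested in that line, and 9.43% of its exonic bases overlap *RHOBTB2* on the opposite strand.

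*FAS*, the other death receptor gene of the group, was at 1.24, 1.25 and 2.07 CPM in the REH controls and at 0.864, 0.659 and 1.15 CPM after *SOX11* siRNA. In 697 the values were 5.65, 6.02 and 4.87 CPM against 3.69, 4.06 and 2.47 CPM, and in RCH-ACV 2.96, 2.60 and 2.21 CPM against 2.78, 1.56 and 1.31 CPM. The groups were apart in REH and 697 and overlapped in RCH-ACV. The log2 fold changes of -0.66 (SE 0.35), -0.70 (SE 0.22) and -0.54 (SE 0.28) were as large as many that passed the test, but at these low levels the adjusted p was 0.357, 0.348 and 0.278.

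*TRIM22*, an interferon- and p53-induced gene, fell in RCH-ACV from 122, 125 and 122 CPM to 98.9, 104 and 103 CPM (log2 fold change -0.27, SE 0.05, adjusted p = 0.00261). In REH the controls ranged from 90.3 to 93.0 CPM and the *SOX11* siRNA samples from 86.6 to 89.9 CPM (-0.04, SE 0.05, adjusted p = 0.711). In 697 the ranges were 54.3 to 57.8 CPM and 49.6 to 54.1 CPM (-0.11, SE 0.07, adjusted p = 0.806). The order was the same in the 3 lines, but the gap in REH and 697 was small against the spread.

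**Figure D3:**
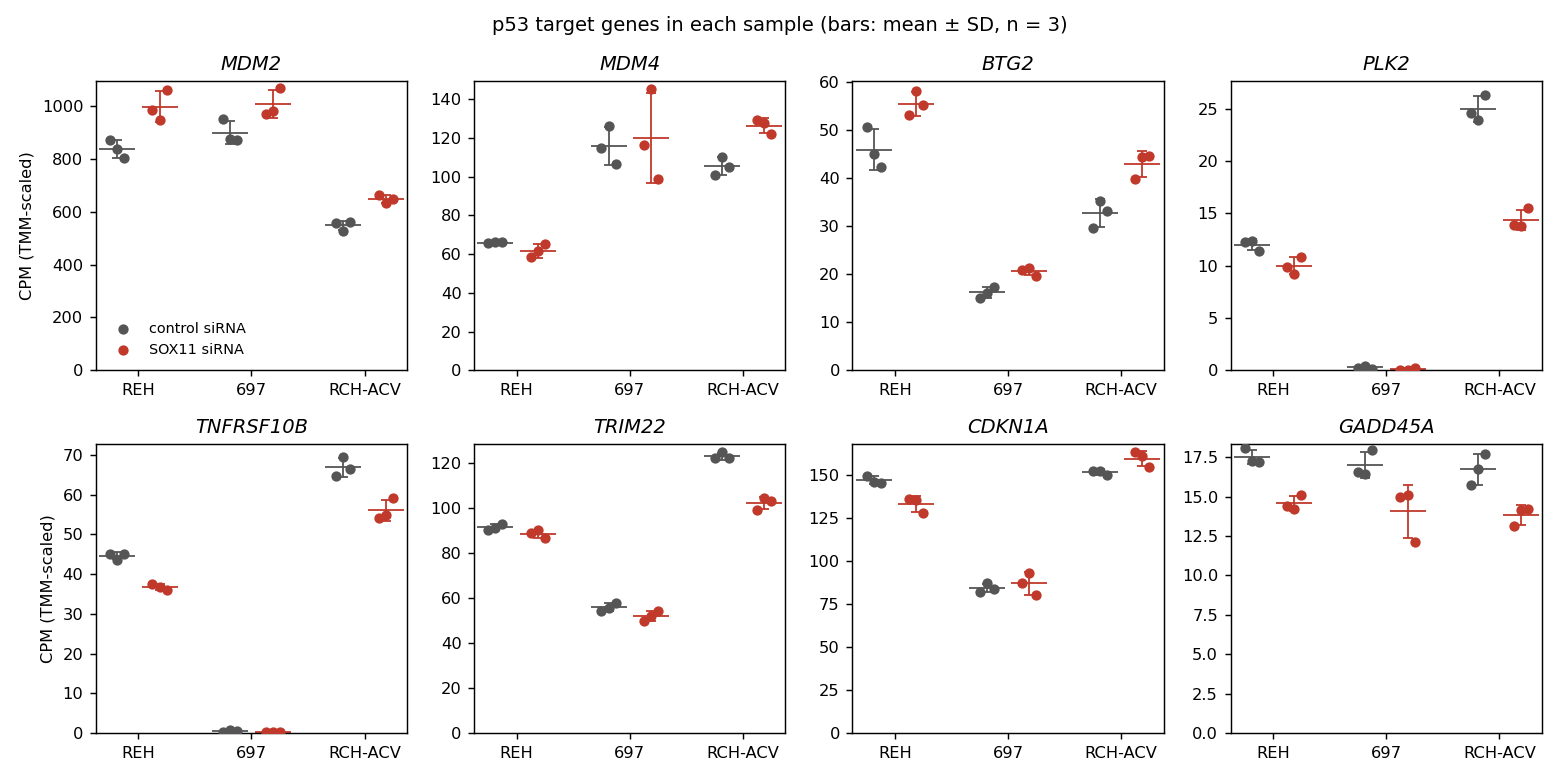
Level in CPM (vertical axes, TMM-scaled, from 0) of 8 p53 targets in each sample, by cell line and siRNA, with the mean and SD of 3 samples as bars. *MDM2* and *BTG2* lie higher after *SOX11* siRNA in each line and *GADD45A* lower, *PLK2* is near 25 CPM in the RCH-ACV controls and near 14 CPM after *SOX11* siRNA, and *PLK2* and *TNFRSF10B* are near 0 in 697.

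The targets that were not called had log2 fold changes from -0.66 to 0.15 in REH, from -0.70 to 0.44 in 697 and from -0.54 to 0.20 in RCH-ACV. Nearest to the threshold in RCH-ACV were *CCNG1*, a cyclin that recruits a phosphatase to MDM2 (-0.15, SE 0.05, adjusted p = 0.0617), *CYFIP2*, an actin regulator (-0.12, SE 0.04, adjusted p = 0.0625), *POLH*, a polymerase that copies past DNA damage (0.20, SE 0.06, adjusted p = 0.0640), and *TIGAR*, which lowers glycolytic flux (-0.26, SE 0.08, adjusted p = 0.0725). With no filter on low counts *CCNG1*, *CYFIP2* and *POLH* were called as well, 10 targets and 1394 genes in all, and *POLH* was also called in 1 fit over the 18 samples, as was *CYFIP2* in 697. Without RCH-ACV *SOX11* siRNA replicate 3, the number of genes called in the line went from 973 to 2479 and that of targets from 7 to 13, with *CCNG1*, *CYFIP2*, *SUSD6*, *PPM1D*, *ZMAT3* and *ASCC3* added, all of them lower. *PHLDA3*, an inhibitor of the kinase AKT, lay on opposite sides of its controls in REH and 697. In REH it was at 3.23, 3.83 and 4.14 CPM in the controls and at 2.98, 2.24 and 1.82 CPM after *SOX11* siRNA, and in 697 at 3.44, 3.53 and 2.84 CPM against 4.20, 4.99 and 4.15 CPM. The log2 fold changes of -0.65 (SE 0.23, adjusted p = 0.113) and 0.44 (SE 0.20, adjusted p = 0.618) did not pass the test, and neither did their difference of 1.10 (adjusted p = 0.118).

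The repair genes *XPC*, *DDB2*, *POLH* and *ASCC3*, the ribonucleotide reductase subunit *RRM2B*, the apoptosis inhibitor *TRIAP1*, the nuclease *AEN*, the phosphatase *PPM1D*, the RNA-binding *ZMAT3*, the sestrins *SESN1* and *SESN2*, and *TP53I3*, *FDXR*, *PLK3*, *FBXO22*, *SUSD6* and *EI24* were not called in any line, apart from the calls of *POLH*, *ASCC3*, *PPM1D*, *ZMAT3* and *SUSD6* in RCH-ACV under the alternatives just given. *SPATA18*, a mitochondrial quality gene, had 0 counts in every sample. *GDF15*, a secreted stress cytokine often used as a p53 readout, had 4 counts, all of them in 697, and neither gene was tested.

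Of a list of 17 genes for the p53 family and its upstream regulators, 15 were tested in REH, 14 in 697 and 16 in RCH-ACV. Only the p53 relative *TP63* was called, 1 of 16 in RCH-ACV beside 7.51% of all genes, and it fell in RCH-ACV from 1.98 ± 0.374 CPM to 0.855 ± 0.362 CPM (SD, n = 3, log2 fold change -1.35, SE 0.35, adjusted p = 0.0254). The levels are low there, and the call was lost under 6 of 14 alternatives (adjusted p from 0.00235 to 0.227).

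Of 8 apoptotic targets of p53, among them *BAX*, *BBC3* and *PMAIP1*, which act on the mitochondrial membrane, edgeR and DESeq2 called 0 in each line, with 7 tested in REH and 6 in each of the other lines. For these and the lists that follow, the share of all genes called was 7.51% in RCH-ACV, 4.65% in REH and 0.559% in 697. At an unadjusted p under 0.05 in edgeR there was 1, *PMAIP1* in REH. Of 30 further targets of p53, 28 were tested in REH, where *TM7SF3* rose (log2 fold change 0.20, adjusted p = 0.00137) and *TRAF4* (-0.24, adjusted p = 0.0114) and *RAP2B* (-0.23, adjusted p = 0.0378) fell. The call of *RAP2B* was lost under 7 of 14 alternatives, that of *TRAF4* under 4 and that of *TM7SF3* under 1. Of 28 in 697, 0 were called by edgeR or DESeq2 (2 at an unadjusted p under 0.05), and of 29 in RCH-ACV *RPS27L*, a ribosomal protein relative induced by p53, fell (-0.30, SE 0.07, adjusted p = 0.0100), a call that was lost under 3 of 14 alternatives, each with 1 sample left out (adjusted p from 0.0576 to 0.0634, range over alternatives 0.00125 to 0.0634). The median log2 fold change of the further targets was 0.03 in RCH-ACV, 0.03 in 697 and 0.01 in REH. Of 8 relatives and partners of TP53INP1, such as *TP53INP2* and the autophagy genes *MAP1LC3B* and *SQSTM1*, 0 were called by edgeR or DESeq2 in the 3 lines, where 7, 6 and 7 were tested, and 0, 2 and 2 had an unadjusted p under 0.05 in REH, 697 and RCH-ACV.

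Levels in the control siRNA samples differed between the lines for 29 of the 31 targets tested, beside 89.0% of all genes, so most targets differed as most genes did. Between 697 and REH, 23 of 31 differed (76.2% of genes), between RCH-ACV and REH 26 (73.7%) and between RCH-ACV and 697 21 (64.2%). In the test over the 3 lines together, *EI24* (adjusted p = 0.466) and *GADD45A* (adjusted p = 0.850) did not pass. *TP53INP1* was lowest in REH (25.4 ± 5.75 CPM), higher in 697 (40.5 ± 2.67 CPM) and highest in RCH-ACV (133 ± 10.8 CPM, SD, n = 3 each), and each step passed the test (log2 difference 0.68, adjusted p = 5.0e-05, and 1.72, adjusted p = 4.5e-11). *PHLDA3* was also highest in RCH-ACV, by 2.45 on the log2 scale over REH (adjusted p = 5.9e-12), and did not differ between 697 and REH past the threshold (-0.17, adjusted p = 0.47). Its transcript shares 21.8% of its exonic bases with a lncRNA on the same strand. *TNFRSF10B* and *PLK2* were almost silent in 697, at 0.462 and 0.274 CPM on average, near the floor of 3 counts. *FAS* was highest in 697, by 1.92 on the log2 scale over REH (adjusted p = 4.9e-07).

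On a scale meant for comparing genes, CPM per kb of transcript, *MDM2* was the highest of the 33 in the controls of REH (112) and 697 (120.1), and *CCNG1* in RCH-ACV (93.0). The length was that of the GENCODE canonical transcript (another one for *FAS*), which need not be the RefSeq transcript counted. The order of genes is therefore approximate. *CYFIP2*, *CDKN1A* and *EI24* were among the 5 highest in each line. For *TP53INP1* the level was 4.53 in REH, 7.23 in 697 and 23.7 in RCH-ACV, while *FAS* reached 0.593, 2.15 and 1.01.

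**Figure D4:**
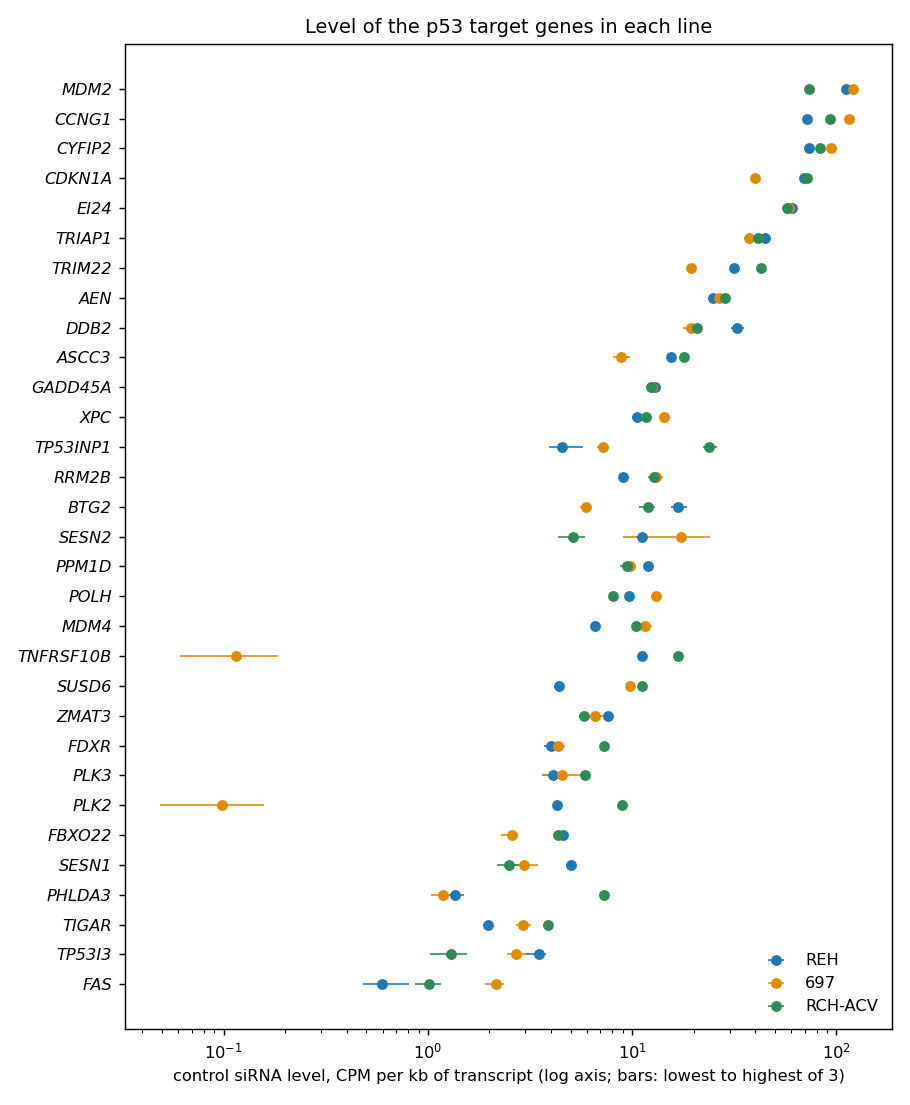
Level of 31 p53 targets in the control siRNA samples, in CPM per kb of transcript (horizontal log axis), with a point at the mean of each line and a bar from the lowest to the highest of 3 samples. *MDM2*, *CCNG1* and *CYFIP2* lie at the top, *TP53INP1* and *PHLDA3* stand out in RCH-ACV, and *TNFRSF10B* and *PLK2* lie far to the left in 697.

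*SESN2*, a sestrin that restrains mTORC1 and is induced by the stress factor ATF4 as well as by p53, varied more among the 697 samples than between siRNAs. It stood at 66.0, 83.7 and 31.2 CPM in the controls and at 70.1, 77.9 and 29.5 CPM after *SOX11* siRNA, so replicate 3 was low under both. *ATF4* and 9 of its target genes, among them *ASNS*, *PSAT1* and *SLC7A11*, were compared in the same samples, and for all 10 both replicates numbered 3 lay below the other 4 samples of 697. None of the 10 had this order in REH or RCH-ACV. *ASNS*, for example, was at 46.9 to 55.5 CPM in the 2 and at 67.9 to 92.8 CPM in the other 4. Of these 10 genes, *DDIT4*, an mTORC1 inhibitor, was the only one called in any line, and it rose in RCH-ACV from 22.7 to 51.0 CPM on average (log2 fold change 1.19, SE 0.12, adjusted p = 1.23e-05). Without both samples numbered 3, *TP53INP1* in 697 had a log2 fold change of -0.48 (adjusted p = 0.222, range over its alternatives 0.0108 to 0.269).

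**Figure D5:**
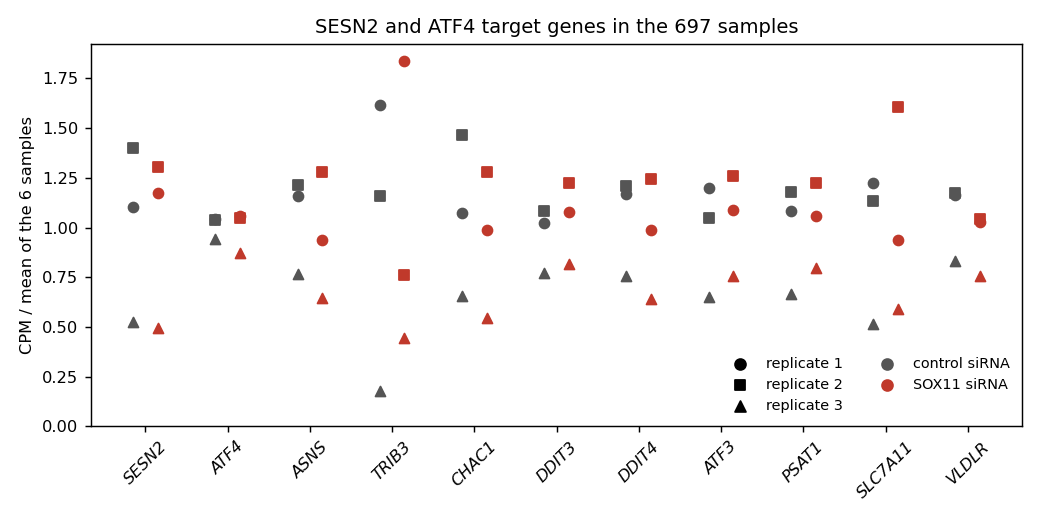
Level of *SESN2*, *ATF4* and 9 targets of ATF4 in the 6 samples of 697, as the ratio to the mean of the 6 (vertical axis), by gene (horizontal axis), siRNA (color) and replicate number (marker). The triangles, replicate 3 of either siRNA, lie lowest for every gene.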

How the data were processed

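The authors made stranded mRNA libraries, aligned the trimmed reads to hg19 (STAR 2.5.3a, no more than a pair of locations allowed) and used HOMER for counting. They deposited 1 table of raw counts per RefSeq transcript for each line, not normalized, and 0 columns belonged to other samples. Of 50678 transcripts, 98.0% (99.0% of counts) were matched to a symbol, and each gene was represented by its transcript of highest summed count.

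Each line was fitted with edgeR 4.0.16 (R 4.3.3): TMM, filterByExpr and the two-sided quasi-likelihood F-test, with genes called at a Benjamini-Hochberg adjusted p under 0.05 over all genes tested. A fit over 18 samples gave differences between lines in the siRNA effect, and a fit over the 9 control samples gave levels. CPM are scaled by TMM over the 18 samples. SE is the size of the log2 fold change divided by the root of F. Floors of 3 counts cover counting error only. Alternatives were RLE, library size alone, DESeq2 1.42.0, other filters, the replicate number as a block, 1 fit over 18 samples, another transcript choice and each sample left out. Fits were tested on simulated data without a replicate effect and with larger changes than most reported here. That test does not show how smaller changes or a replicate effect are handled. Positions and response elements came from GENCODE and the GRCh37 genome. *FAS* had no transcript marked canonical.

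The members and gene lists were chosen with earlier results of these data known. Sample values are given for *TP53INP1*, every target called in any line and *CDKN1A*; *GADD45A*, *FAS*, *PHLDA3*, *SESN2* and the targets nearest to the threshold were named after their values were seen. Of each further list, at most 4 called genes are named.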

Additional observations from a re-analysis of the deposited data

Results flagged for a closer look

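The effect of *SOX11* siRNA on *TP53INP1* differed between the 3 lines in the test of the difference itself (adjusted p = 0.000116, edgeR, 18 samples). The level was lower in 3 of 3 *SOX11* siRNA samples than in every control in RCH-ACV and in 697, and not in REH. Groups of 3 samples were not searched for outlying samples.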

How the results depend on the processing

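In RCH-ACV, *TP53INP1*, *PLK2*, *MDM2*, *BTG2* and *TRIM22* passed the threshold in the same direction under all 14 alternatives, as did *MDM2* in REH. The test of a difference between lines called *TP53INP1* under every alternative run. DESeq2 gave 1 target and 313 genes in REH and 582 genes in RCH-ACV, and its likelihood ratio test gave 2 targets that differed between lines. One fit over the 18 samples gave 228 genes in REH, and 2 targets and 189 genes in 697. Library size alone left 0 targets in 697, and raised the share of calls that were higher in RCH-ACV from 47.8% to 52.5% and lowered it in REH from 56.7% to 49.3%, where the 18-sample fit gave 47.4%. With no filter on low counts, 119 genes were called in 697, 3 targets and 276 genes differed between lines, and *TP53INP1* differed between RCH-ACV and 697 (-0.63, adjusted p = 4.57e-05, range over alternatives up to 0.389). With both 697 samples numbered 3 left out, an alternative chosen after seeing the data, 0 targets and 29 genes were called. Over all genes tested in a line, the deviations of samples with the same replicate number had correlations from -0.292 to 0.292. Both 697 samples numbered 3 were nevertheless low in *ATF4* and its targets, so a shared replicate effect on some genes is not excluded. The replicate block gave 0 targets and 29 genes in 697 and 42 genes that differed between lines.

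Leaving out 1 sample gave 1 to 4 targets and 296 to 522 genes in REH (the lowest without control replicate 3), 0 to 1 and 25 to 70 in 697, 6 to 13 and 386 to 2479 in RCH-ACV, and 1 to 2 and 57 to 179 for differences between lines. The difference in *TP53INP1* between RCH-ACV and 697 lay between -0.71 and -0.55, and passed the threshold without RCH-ACV *SOX11* siRNA replicate 3 (adjusted p = 0.0305, range 0.0305 to 0.389). In 697, *MDM4* (-0.10 to 0.18) changed sign without *SOX11* siRNA replicate 2 and, at -0.0013, without control replicate 3, and *CDKN1A* (-0.0054 to 0.10) without *SOX11* siRNA replicate 2. The cause was not tested for any of these. Of 838 values of single genes under an alternative, 747 kept direction and side of the threshold. At this depth, *GDF15*, *SPATA18* and, in 697, *TNFRSF10B* and *PLK2* could not be tested, and p-values measure the spread between 3 replicates that the study calls biological.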
